A study of Mus musculus with 6 samples.

Results

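Expression of 44 cell cycle genes was compared in all 6 libraries of a study of mouse neurospheres. The 44 genes were given by name, 22 that act in G2 and mitosis (called here the G2/M genes) and 22 that act in the G1 to S transition and DNA replication (the G1/S genes). All 44 were found among the 17551 genes of the count table, and all 44 were among the 14643 genes tested after the filter on low counts. The lowest count of a member in any library was that of Gins1 in WT replicate 1, at 832.

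A dividing cell copies its DNA in S phase and separates the copies in mitosis, and the genes for these steps are transcribed in successive waves. Genes for origin licensing, deoxynucleotide synthesis and the replication fork are induced from late G1 by E2F factors once the retinoblastoma protein is phosphorylated. Genes for mitotic kinases, motors and checkpoint proteins are induced later by B-Myb, FOXM1 and the MuvB complex, which binds a short element near the transcription start called the cell cycle genes homology region (CHR). Neural stem and progenitor cells lose both waves when they leave the cycle to differentiate.

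Neurospheres are spheres of neural stem cells and their progenitors kept in suspension, here in DMEM/F12 with N2, B27, EGF and FGF, and the strain background was C57BL/6 in every sample. The G328V group held 3 libraries (replicates 1, 2 and 3) with the genotype ACVR1 G328V, in which valine replaces a glycine of this type I BMP receptor. The WT group held 3 libraries (replicates 1, 3 and 70A) with the genotype ACVR1 WT. Sample titles carry the codes NPAC for the G328V group and NPC for the WT group, and neither these codes, nor how the variant was introduced, nor the age of the animals is explained by the labels. The design text calls the samples biological replicates without naming animals or cultures, so the spread behind each p-value is that between these 6 samples and may be partly technical.

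Gene counts per library ranged from 115953495 to 191115532, with close to 2 counts for each sequenced fragment (median ratio 1.95 to 1.96), so counts are not independent molecules. Acvr1 held 244, 250 and 650 CPM (counts scaled to library size) in G328V and 42.4, 100 and 90.7 CPM in WT, higher in each G328V library. Xist held 443 to 795 CPM in G328V and 0.25 to 1.18 CPM in WT, so sex-linked expression and genotype cannot be told apart in any comparison here. Of the neural stem and radial glia markers, all 8 were detected in every library, and their summed level was 2383 to 3788 CPM in G328V and 2332 to 5328 CPM in WT. Single markers differed more than the sum. Their log2 differences (G328V minus WT) ran from -4.14 to 2.81, with 5 of 8 below 0 (edgeR quasi-likelihood F-test, adjusted p 0.997 or higher). WT replicate 1 stood apart in Olig1 and Olig2: it held 615 CPM of Olig1 and 416 CPM of Olig2, which were at 1.07 CPM or lower in the other 5 libraries. The other oligodendrocyte precursor markers listed, Pdgfra, Cspg4 and Sox10, held little there, as the whole list summed to 1044 CPM in that library.

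The 2 gene groups carry different short elements before their start sites, which are shown first because the expression data are ordered by the same grouping. RefSeq promoter windows (GRCm38.p6, 250 bases before to 50 after the start) were matched by symbol for 17 of the 22 G2/M genes and 18 of the 22 G1/S genes. The letters TTTGAA or TTCGAA, the core of the CHR, were searched on both strands, as were CCAAT, the box bound by NF-Y, and the E2F forms TTTGGCGC, TTTCCCGC, TTTGGCGG and TTTCGCGC. A match on the opposite strand is printed as its reverse complement, for example ATTGG for the box of NF-Y. The 4 G2/M windows show a CHR core close to the start with a CCAAT box before it, and the 3 G1/S windows show E2F forms (Mcm5, Mcm6) or a CCAAT box alone (Rrm2). Each stretch ends 1 base before the RefSeq start, and is written 5′ to 3′ on the gene's strand with every matched letter in capitals. By the GENCODE models, which begin further upstream for 3 of these genes, the last 26 bases for Cdk1, 9 for Cdc20 and 13 for Rrm2 lie inside the gene, and the rest is upstream flank. In Mcm5 and Mcm6 the first run of capitals is a pair of E2F forms that overlap.
Cdk1, minus strand, chr10:69352913-69353022: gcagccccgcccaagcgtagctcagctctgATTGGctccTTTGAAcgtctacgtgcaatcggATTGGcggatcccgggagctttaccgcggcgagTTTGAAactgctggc
Cdc20, minus strand, chr4:118437344-118437453: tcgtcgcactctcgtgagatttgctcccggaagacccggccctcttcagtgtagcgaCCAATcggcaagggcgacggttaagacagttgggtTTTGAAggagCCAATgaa
Kif11, plus strand, chr19:37376272-37376381: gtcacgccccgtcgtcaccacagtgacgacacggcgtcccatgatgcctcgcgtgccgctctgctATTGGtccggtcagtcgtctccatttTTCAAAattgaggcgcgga
Top2a, minus strand, chr11:99024190-99024299: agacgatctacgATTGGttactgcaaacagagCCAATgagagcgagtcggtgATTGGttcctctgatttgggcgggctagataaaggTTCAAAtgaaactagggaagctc
Mcm5, plus strand, chr8:75109349-75109508: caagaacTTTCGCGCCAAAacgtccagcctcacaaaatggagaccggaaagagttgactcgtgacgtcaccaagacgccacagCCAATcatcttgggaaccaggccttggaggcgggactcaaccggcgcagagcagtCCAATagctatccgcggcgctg
Mcm6, minus strand, chr1:128359706-128359825: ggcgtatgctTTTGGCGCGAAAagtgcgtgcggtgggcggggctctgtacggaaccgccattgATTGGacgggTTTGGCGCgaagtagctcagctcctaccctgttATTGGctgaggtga
Rrm2, plus strand, chr12:24708144-24708253: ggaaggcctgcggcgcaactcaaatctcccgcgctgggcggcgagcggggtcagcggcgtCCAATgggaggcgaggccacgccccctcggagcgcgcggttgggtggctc

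Shares are of genes with a match in any of their windows, and Mcm7, E2f2 and Uhrf1 had 2 windows each (21 windows for the 18 G1/S genes), which gives them more room for a match. A CHR core was present in 13 of 17 G2/M genes (76.5%), in 4 of 18 G1/S genes (22.2%) and in 21.7% of the 27025 symbols with a window. It lay within 40 bases of the start in 11 G2/M genes and in 2 G1/S genes. An E2F form was present in 1 of 17 G2/M genes (5.88%), Cdk1, in 8 of 18 G1/S genes (44.4%) and in 2.70% of all symbols. The 8 were Mcm3, Mcm5, Mcm6, Mcm7, Cdc6, Cdt1, Uhrf1 and E2f2. A CCAAT box was the most frequent, in 15 of 17 G2/M genes (88.2%), 12 of 18 G1/S genes (66.7%) and 41.1% of all symbols. Among the tested genes with a window, the shares were 16.1% for the CHR core, 4.81% for an E2F form and 43.1% for CCAAT. These matches are a description of the letters and not of factor binding.

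Between genotypes, no cell cycle gene of either group passed the test, while most differences were above 0, that is, higher in G328V. Of the 22 G2/M genes 0 were called, and of the 22 G1/S genes 0 were called (edgeR quasi-likelihood F-test, false discovery rate 0.05), beside 0% of the 14643 tested genes. DESeq2 also called 0 of the 44, beside 1.05% of the genes it tested. At an unadjusted p under 0.05 edgeR gave 0 G2/M genes and 1 G1/S gene, Rrm2, beside 4.06% of all tested genes. The edgeR adjusted p of every member was 0.997 or higher, and the lowest of any member in any alternative was 0.193, that of Rrm2 in DESeq2.

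All 22 G2/M genes had a log2 difference (G328V minus WT) above 0, where 49.7% of all tested genes did; 2 of them, Cdk1 and Ccnb1, were below 0 with other size factors (RLE) or with DESeq2. The median of the 22 was 0.34, from 0.007 (Cdk1) to 0.48 (Bub1), beside a median of -0.004 over all tested genes. Of the 22 G1/S genes 17 were above 0, with a median of 0.26 and a range from -0.60 (Cdc45) to 0.94 (Rrm2). Without WT replicate 1 the G2/M median was 0.18 with 18 of 22 above 0, and the G1/S median was 0.03 with 14 of 22 above 0. In that setting the median over all tested genes was 0.06, and 54.1% of them were above 0. Without G328V replicate 2 the G2/M median was 0.17. Without WT replicate 1 the log2 difference of 29 of the 44 members (18 G2/M and 11 G1/S) moved by over 1.5 times, the most of any left-out library, and leaving out G328V replicate 2 moved 21. This ratio also counts small shifts of differences near 0, such as Cdk1 from 0.007 to -0.09. Its share over all tested genes was not computed. WT replicate 1 was the lowest library for 23.3% and the highest for 23.1% of all tested genes. In bulk RNA, fewer cycling cells and less RNA per cycling cell cannot be told apart.

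**Figure D1:**
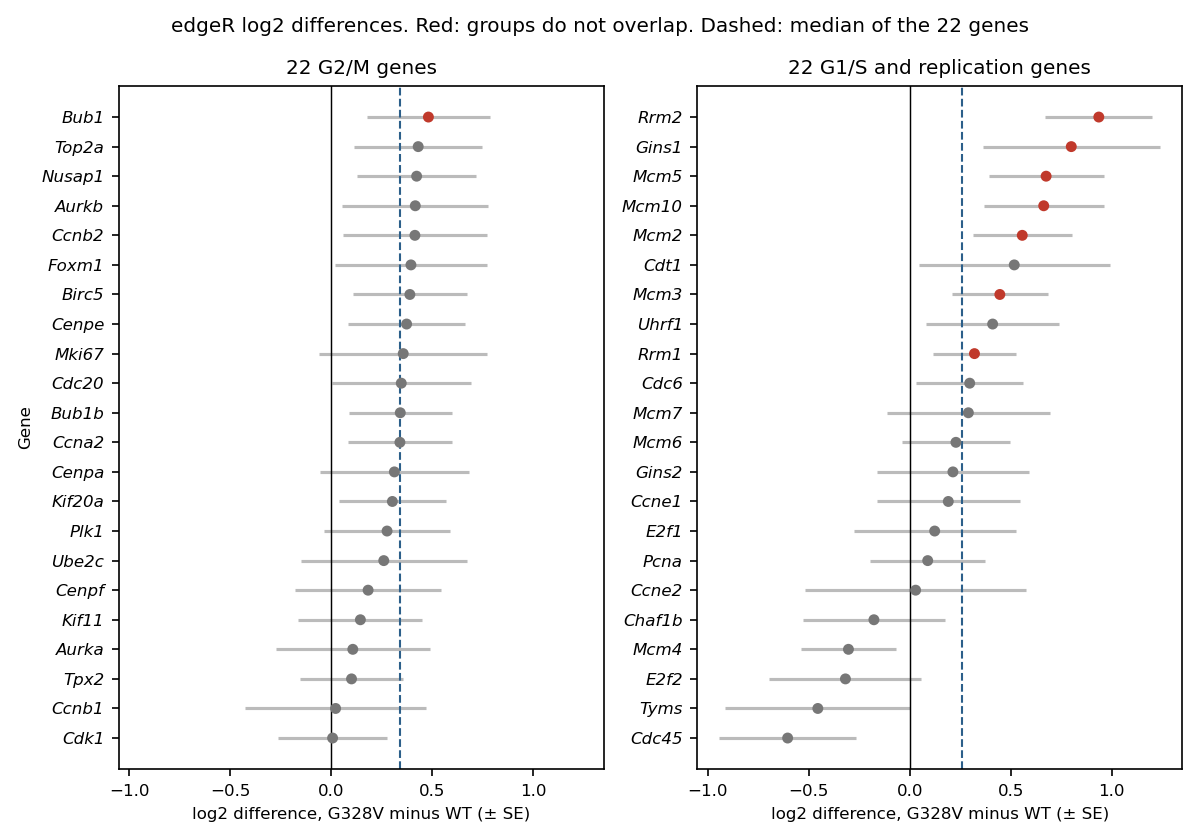
Log2 differences (x axis, G328V minus WT, edgeR, bars ± SE) of the 22 G2/M genes and the 22 G1/S genes (y axis), with genes whose groups do not overlap in red and the median of each group dashed. The G2/M differences sit between 0.007 and 0.48, and the G1/S differences spread from -0.60 to 0.94.

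Over all 6 libraries, 7 G1/S genes had every G328V library above every WT library. They were Mcm2, Mcm3, Mcm5, Mcm10, Rrm1, Rrm2 and Gins1, and among the G2/M genes there was 1, Bub1, beside 5.25% of all tested genes. No member had all G328V libraries below all WT libraries, beside 4.45% of all tested genes. The 7 against 1 depended on which libraries were used. Without G328V replicate 1 there were 7 G2/M and 7 G1/S genes higher and 3 G1/S genes lower, beside 8.91% and 8.02% of all tested genes. Without WT replicate 70A there were 5 G2/M and 8 G1/S genes higher, beside 9.68%. Leaving out a library cannot undo a separation, so the 7 G1/S genes and Bub1 necessarily remained in each such setting. Without WT replicate 1, 7 G1/S and 2 G2/M genes were higher, and 3 G1/S genes had every G328V library below every WT library. Of all tested genes 11.9% were then higher and 11.8% lower. With total-count scaling, which moved the median of all genes from -0.004 to 0.12, 6 G2/M and 8 G1/S genes had all G328V libraries higher, beside 7.91% of all tested genes.

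**Figure D2:**
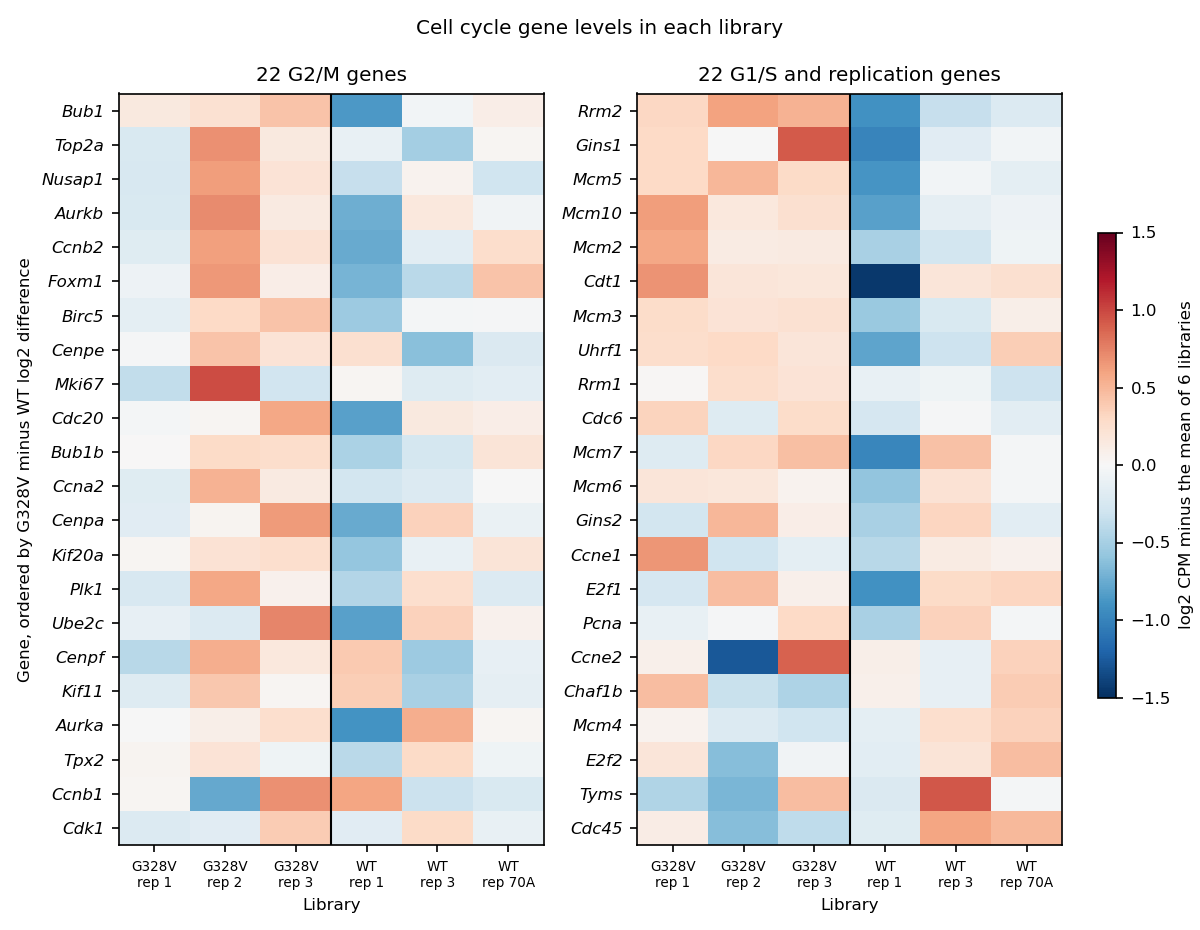
Level of each of the 44 genes (rows) in each library (columns), as log2 CPM minus the mean of the 6 libraries (color scale). WT replicate 1 is the lowest library for 15 genes in either panel, and G328V replicate 2 is the highest for 12 G2/M genes.

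Among the cyclins and the kinase of mitotic entry, levels differed more between libraries than between genotypes. Ccnb1, the B-type cyclin that activates CDK1, held 280, 162 and 439 CPM in the G328V libraries (replicates 1, 2 and 3, as below) and 415, 219 and 234 CPM in the WT libraries (replicates 1, 3 and 70A). Both its highest and its lowest library were G328V libraries, and its log2 difference was 0.02 ± 0.45 (SE). Cdk1, the kinase itself, averaged 230 ± 55.1 CPM (SD, n = 3) with G328V against 228 ± 41.6 CPM (SD, n = 3) without it, a log2 difference of 0.01 ± 0.27 (SE). Ccna2, the cyclin of S phase and G2, and Ccnb2, the second B-type cyclin, had log2 differences of 0.34 ± 0.26 (SE) and 0.41 ± 0.36 (SE). Both were highest in G328V replicate 2 and lowest in WT replicate 1, and their groups overlapped. The differences were 0.36 for Ccnb1, -0.09 for Cdk1 and 0.17 for Ccnb2 without WT replicate 1.

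The kinases and adaptors of the spindle checkpoint held the gene with the smallest p of the G2/M group. Bub1, a checkpoint kinase at kinetochores, held 168, 178 and 203 CPM in G328V and 83.2, 147 and 163 CPM in WT replicates 1, 3 and 70A. Every G328V library was above every WT library, by a margin of few CPM against WT replicate 70A, and the log2 difference was 0.48 ± 0.31 (SE; edgeR quasi-likelihood F-test, adjusted p = 0.997). Without WT replicate 1 the Bub1 difference was 0.22. Bub1b, which encodes the checkpoint protein BUBR1, held 127, 154 and 151 CPM in G328V and 90.9, 106 and 144 CPM in WT. The WT replicate 70A library lay within the G328V range, and the log2 difference was 0.34 ± 0.25 (SE). Cdc20, the activator of the anaphase-promoting complex that the checkpoint restrains, had a log2 difference of 0.35 ± 0.34 (SE), and Ube2c, the ubiquitin-conjugating enzyme of that complex, one of 0.26 ± 0.41 (SE). These became 0.19 for Bub1b, 0.08 for Cdc20 and -0.02 for Ube2c without WT replicate 1.

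The mitotic kinases and their partners gave differences from 0.10 to 0.42, with standard errors from 0.25 to 0.38. Plk1, which drives mitotic entry and spindle assembly, had a log2 difference of 0.28 ± 0.31 (SE), which was 0.02 without G328V replicate 2. Aurka, the spindle pole kinase, had one of 0.11 ± 0.38 (SE), and its lowest (61.3 CPM) and highest (167 CPM) libraries were WT replicates 1 and 3. Tpx2, which activates Aurora A on spindle microtubules, had the same lowest and highest libraries and a log2 difference of 0.10 ± 0.25 (SE). Aurkb, the kinase of the chromosomal passenger complex, had a log2 difference of 0.42 ± 0.36 (SE). Birc5, which encodes its partner survivin, held 43.97, 59.9 and 65.7 CPM in G328V and 33.4, 47.9 and 48.1 CPM in WT. G328V replicate 1 lay below 2 WT libraries, and the Birc5 log2 difference was 0.39 ± 0.28 (SE). With WT replicate 1 left out, the differences were -0.21 for Aurka, -0.07 for Tpx2, 0.11 for Plk1, 0.18 for Aurkb and 0.22 for Birc5.

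Among genes of the kinetochore, the spindle and the chromosomes, G328V replicate 2 was often the highest library. Top2a, the topoisomerase that untangles sister chromatids, held 702, 1322 and 911 CPM in G328V and 760, 576 and 842 CPM in WT. Mki67, the proliferation marker that coats mitotic chromosomes, held 425, 1089 and 452 CPM in G328V and 561, 482 and 493 CPM in WT. Mki67 was thus high in 1 library, with the other 2 G328V libraries below all WT libraries. Its log2 difference was 0.36 ± 0.42 (SE) over all libraries and -0.22 without G328V replicate 2, and that of Top2a went from 0.43 ± 0.32 (SE) to 0.15. Nusap1, a spindle microtubule protein, held 65.3, 119 and 88.4 CPM in G328V and 60.6, 80.1 and 62.5 CPM in WT. Its groups overlapped, with G328V replicate 1 below WT replicate 3, at a log2 difference of 0.42 ± 0.30 (SE).

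The remaining G2/M genes had log2 differences from 0.14 to 0.39. They were Cenpa, the centromeric histone variant (0.31 ± 0.37, SE), Cenpe, a kinetochore motor (0.37 ± 0.29, SE), Cenpf, a large kinetochore protein (0.18 ± 0.36, SE), and Kif11, the motor that separates spindle poles (0.14 ± 0.31, SE). Kif20a, a motor of the central spindle, had a log2 difference of 0.30 ± 0.26 (SE). Foxm1, the transcription factor of the G2/M program, had one of 0.39 ± 0.38 (SE). Its level ran from 73.1 CPM in WT replicate 1 to 185 CPM in G328V replicate 2, and WT replicate 70A, at 159 CPM, was above the other 2 G328V libraries. When WT replicate 1 was left out, the differences were 0.06 for Cenpa, 0.10 for Kif20a, 0.16 for Foxm1, 0.60 for Cenpe, 0.44 for Cenpf and 0.38 for Kif11.

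**Figure D3:**
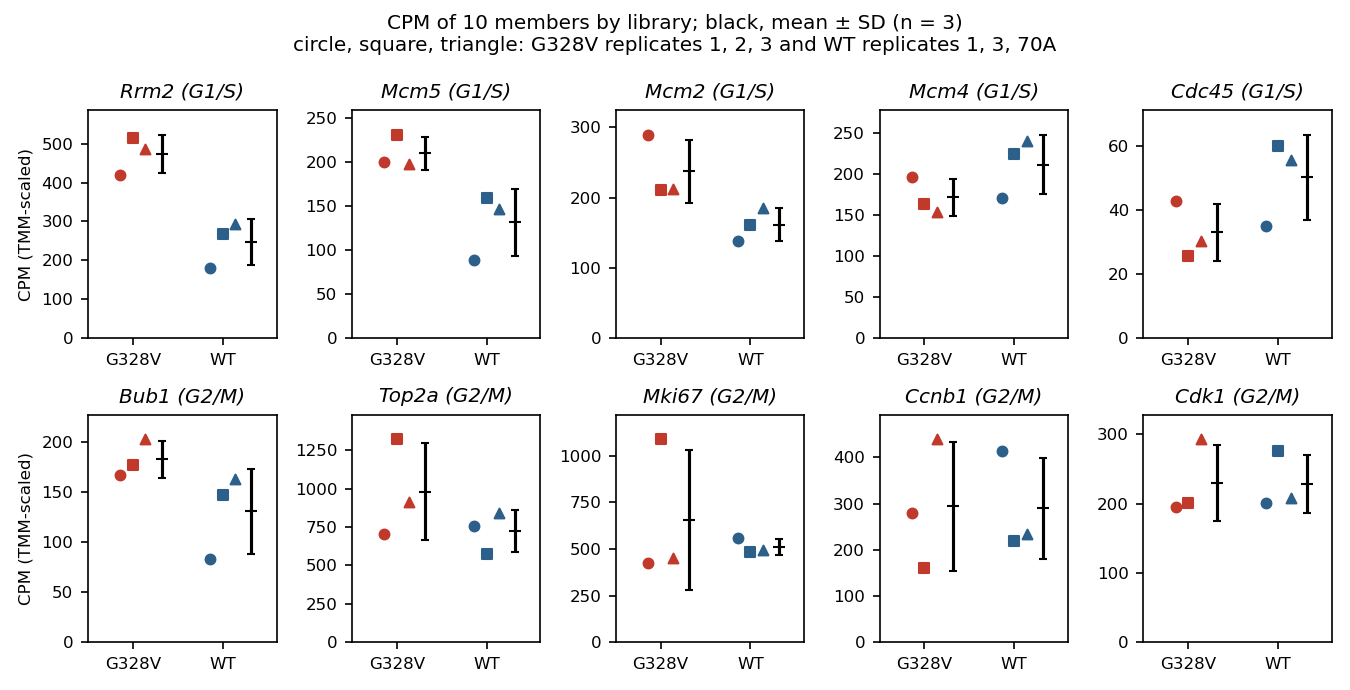
CPM (y axis, from 0) of 10 members in each G328V and WT library (x axis), with the mean and SD of the 3 libraries in black. The Rrm2, Mcm2, Mcm5 and Bub1 points do not overlap between genotypes, whereas for Mki67 and Top2a G328V replicate 2 stands above the other libraries.

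Deoxynucleotide synthesis held the member with the largest difference. Rrm2, the S phase subunit of ribonucleotide reductase, held 419, 515 and 486 CPM in G328V and 181, 267 and 294 CPM in WT. The G328V range began well above the WT range, and the group levels were 474 ± 49.4 CPM (SD, n = 3) and 247 ± 59.2 CPM (SD, n = 3). The log2 difference was 0.94 ± 0.26 (SE; edgeR adjusted p = 0.997), and it lay between 0.74 and 1.07 when any 1 library was left out. It did not pass the test after adjustment.

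The other genes of deoxynucleotide supply differed less or the other way. Rrm1, the large subunit of the same enzyme, held 264, 313 and 301 CPM in G328V and 241, 251 and 211 CPM in WT. Its groups did not overlap, and the log2 difference was 0.32 ± 0.21 (SE). Tyms, the thymidylate synthase, held 39.8, 33.9 and 75.1 CPM in G328V and 47.0, 104 and 53.3 CPM in WT, with a log2 difference of -0.46 ± 0.46 (SE). Its groups overlapped, and its counts per fragment (1.61 to 1.87) fell below those of most genes.

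The 6 subunits of the MCM2-7 helicase, which act as 1 ring, did not share 1 direction. Mcm2 held 290, 210 and 212 CPM in G328V and 138, 161 and 185 CPM in WT, a log2 difference of 0.56 ± 0.24 (SE). Mcm3 held 210, 199 and 202 CPM in G328V and 117, 148 and 183 CPM in WT, a log2 difference of 0.45 ± 0.24 (SE). Mcm5 held 200, 231 and 199 CPM in G328V and 88.2, 159 and 147 CPM in WT, a log2 difference of 0.68 ± 0.28 (SE). For these 3 subunits every G328V library was above every WT library, and WT replicate 1 was the lowest. Leaving out WT replicate 1 gave differences of 0.44 for Mcm2, 0.28 for Mcm3 and 0.44 for Mcm5. Mcm4 held 197, 164 and 154 CPM in G328V and 171, 224 and 240 CPM in WT, a log2 difference of -0.30 ± 0.24 (SE). Its groups overlapped because G328V replicate 1 was above WT replicate 1. Mcm6 and Mcm7 had log2 differences of 0.23 ± 0.27 (SE) and 0.29 ± 0.40 (SE), which became 0.02 and -0.03 without WT replicate 1.

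Helicase loading and activation factors lie around that ring. Mcm10, which joins the helicase when origins fire, held 89.2, 64.7 and 68.1 CPM in G328V and 32.8, 52.4 and 54.9 CPM in WT, a log2 difference of 0.66 ± 0.30 (SE). Gins1, of the GINS complex, held 16.5, 13.3 and 25.4 CPM in G328V and 6.76, 11.9 and 13.0 CPM in WT, a log2 difference of 0.80 ± 0.44 (SE). Both had no overlap between groups, although G328V replicate 2 and WT replicate 70A were close for Gins1, and without WT replicate 1 the differences were 0.45 for Mcm10 and 0.55 for Gins1. Cdc45, which completes the active helicase with MCM2-7 and GINS, had the most negative difference of all members. Cdc45 held 42.9, 25.5 and 30.4 CPM in G328V and 34.9, 59.9 and 55.5 CPM in WT, a log2 difference of -0.60 ± 0.34 (SE; edgeR adjusted p = 0.997). Its groups overlapped through G328V replicate 1 and WT replicate 1. Gins2, the second GINS member listed, had a log2 difference of 0.21 ± 0.38 (SE), and the helicase loaders Cdc6 and Cdt1 had 0.30 ± 0.26 (SE) and 0.52 ± 0.47 (SE). Cdt1 held 30.6 CPM in WT replicate 1 and at least 93.8 CPM in every other library, and without that library its difference was 0.13.

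At the fork and in chromatin copying, differences were near 0 or varied between libraries. Pcna, the sliding clamp, held 284, 303 and 377 CPM in G328V and 219, 388 and 300 CPM in WT, a log2 difference of 0.09 ± 0.29 (SE). Its lowest and highest libraries were both WT. Chaf1b, a subunit of the chromatin assembly factor that follows the fork, held 40.3, 23.2 and 21.4 CPM in G328V and 30.8, 27.04 and 38.2 CPM in WT, a log2 difference of -0.18 ± 0.35 (SE). Its highest and lowest libraries were both G328V. Uhrf1, which recruits maintenance DNA methylation to new strands, had a log2 difference of 0.41 ± 0.33 (SE). It was 0.16 without WT replicate 1, and that of Pcna was then -0.11.

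The regulators of S phase entry themselves gave differences smaller than their standard errors. E2f1, an activating E2F factor, had a log2 difference of 0.12 ± 0.40 (SE). E2f2, another activating E2F factor, held 17.0, 9.66 and 14.5 CPM in G328V and 13.5, 17.1 and 20.8 CPM in WT, a log2 difference of -0.32 ± 0.38 (SE). Its groups overlapped, with G328V replicate 2 lowest. Ccne1 and Ccne2, the E-type cyclins that activate CDK2, had log2 differences of 0.19 ± 0.35 (SE) and 0.03 ± 0.55 (SE). Ccne2 ran from 9.99 CPM in G328V replicate 2 to 44.7 CPM in G328V replicate 3, the widest ratio between libraries of any member (4.47). In the fit without WT replicate 1 the differences were -0.20 for E2f1 and 0.03 for Ccne1.

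Per kilobase of the longest coding transcript, the mean level over the 6 libraries was highest for Pcna (205 CPM per kb), Rrm2 (164) and Top2a (163), followed by Ccnb1 (117) and Ccna2 (96.8). The MCM2-7 subunits, which form a ring with 1 copy of each, had 50.5 to 59.1 CPM per kb for Mcm2 to Mcm6 and 82.0 CPM per kb for Mcm7. Mcm10 had 12.4 CPM per kb, and E2f2 (3.26), Gins2 (4.54) and Cdc6 (7.53) had the lowest levels. By genotype, Rrm2 had 216 CPM per kb in G328V and 113 CPM per kb in WT. Between libraries, the highest CPM was a median of 2.21 times the lowest among the G2/M genes and 2.19 times among the G1/S genes. Over all tested genes of at least 1 CPM this median was 2.88.

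The balance of the G2/M against the G1/S genes was measured in each library as the mean centred log2 CPM of the 22 G2/M genes minus that of the 22 G1/S genes. It was -0.31, 0.34 and 0.07 in the G328V libraries, in replicate order, against 0.16, -0.16 and -0.10 in the WT libraries. The highest and the lowest library were both G328V, and the WT values lay between them. The mean was 0.03 ± 0.33 (SD, n = 3) with G328V against -0.03 ± 0.17 (SD, n = 3) for WT, a difference of 0.06 that was smaller than either SD. As a difference between genotypes it lay between -0.09 and 0.24 when any 1 library was left out.

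**Figure D4:**
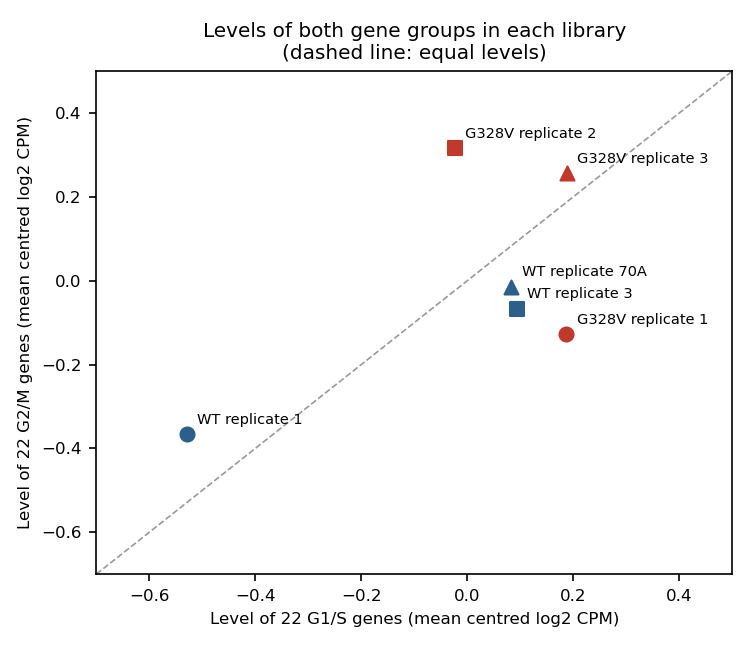
Mean centred log2 CPM of the 22 G1/S genes (x axis) against that of the 22 G2/M genes (y axis), 1 point for each library, with a dashed line of equal levels. G328V replicate 2 lies above the line (balance 0.34), G328V replicate 1 below it (-0.31), and WT replicate 1 is low on both axes (-0.53 and -0.37).

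The libraries reached those balances in different ways. G328V replicate 1 had a G2/M level of -0.13 and a G1/S level of 0.19, and it was the highest library for 7 G1/S genes and for 0 G2/M genes, where it was the highest for 13.6% of all tested genes. G328V replicate 2 had a G2/M level of 0.32 and a G1/S level of -0.02, and it was the highest library for 12 G2/M genes, where it was the highest for 19.1% of all tested genes. G328V replicate 3 was above the mean for both, at 0.26 and 0.19. WT replicate 1 was below the mean for both, at -0.37 and -0.53, and it was the lowest library for 15 G2/M and 15 G1/S genes, where it was the lowest for 23.3% of all tested genes. WT replicates 3 and 70A lay near the mean, with G2/M levels of -0.07 and -0.01 and G1/S levels of 0.09 and 0.08.

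The mean G2/M level was 0.15 ± 0.24 (SD, n = 3) with G328V against -0.15 ± 0.19 (SD, n = 3) for WT, and the mean G1/S level was 0.12 ± 0.12 (SD, n = 3) against -0.12 ± 0.36 (SD, n = 3). Groups overlapped for both. Summed over the genes on the linear scale, G1/S genes took 3125, 3157 and 3229 CPM in the G328V libraries and 1857, 2888 and 2784 CPM in WT replicates 1, 3 and 70A. This sum was higher in every G328V library than in any WT library, which leaving out a library cannot change. Rrm2 alone held 419, 515 and 486 CPM of it in G328V and 181, 267 and 294 CPM in WT. The G2/M sum was 3824, 5823 and 4882 CPM in G328V and 3825, 3851 and 4176 CPM in WT, and its groups overlapped.

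Within WT replicate 1, the G2/M genes were not lowered alike. The 5 members with transcripts of 1 to 2 kb (among them Ccnb2, Aurka and Cenpa) had a mean centred level of -0.79, the 9 of 2 to 4 kb -0.42, the 5 of 4 to 7 kb -0.20, and the 3 over 7 kb (Mki67, Cenpe and Cenpf) 0.22. Over all tested genes with a matched length, the median in that library went from -0.20 below 1 kb to 0.25 above 7 kb. In G328V replicate 3 the all-gene median went the other way, from 0.32 to -0.13. The G1/S genes of WT replicate 1 were at -0.45, -0.57 and -0.45 in the classes of 1 to 2, 2 to 4 and 4 to 7 kb. Removing the length trend of each library changed the medians little, to 0.32 for the G2/M genes and 0.26 for the G1/S genes.

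**Figure D5:**
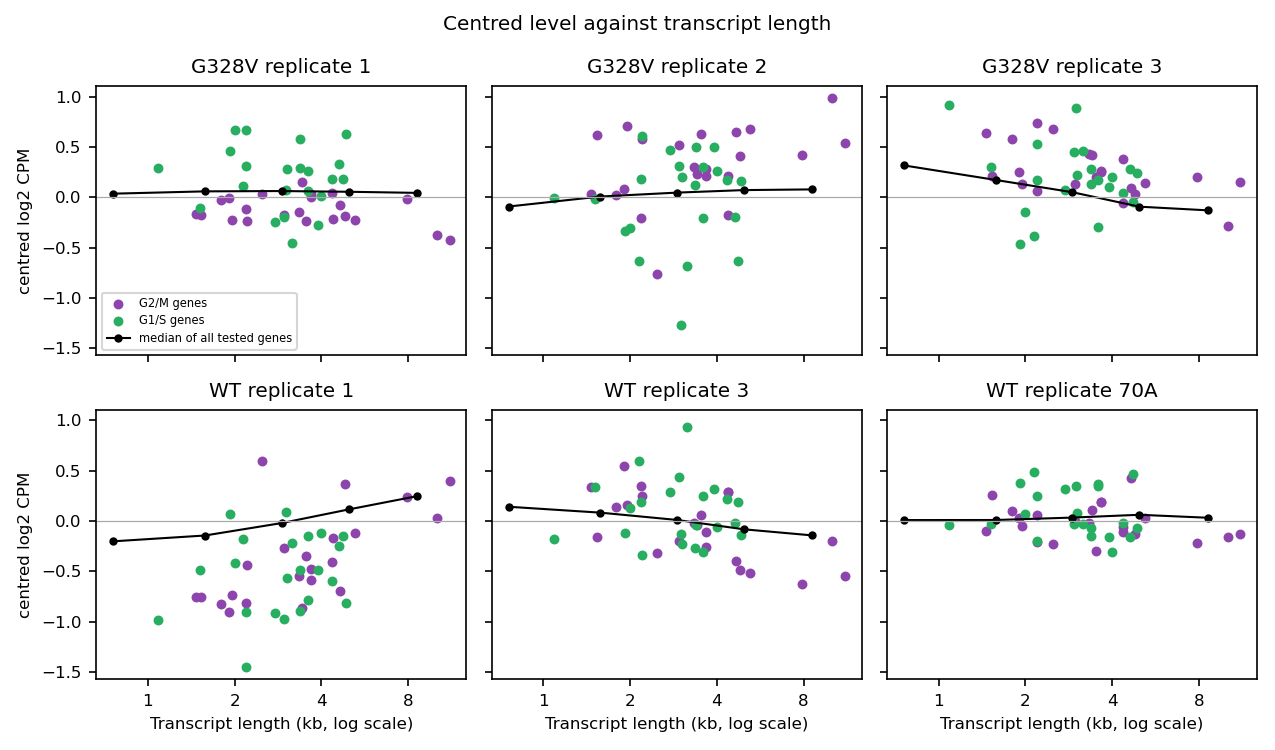
Centred log2 CPM of each member (points, y axis) against transcript length (x axis, log scale, kb) in each library, with the median of all tested genes as a black line. In WT replicate 1 the short G2/M genes lie lowest and the line climbs from -0.20 to 0.25, while in G328V replicate 3 it falls from 0.32 to -0.13.

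Differences were also read by promoter element, without a test. The 13 G2/M genes with a CHR core in the window had a median log2 difference of 0.31, and the 4 without, Ccnb1, Cenpe, Birc5 and Nusap1, had one of 0.38. The 8 G1/S genes with an E2F form had a median of 0.35 with 7 above 0, and the 10 without had a median of 0.16 with 7 above 0. G1/S medians also differed by the other elements. They were 0.37 for the 12 genes with a CCAAT box and 0.16 for the 6 without. For the CHR core they were -0.01 for the 4 genes with it and 0.31 for the 14 without. Rrm2, with the largest difference of the members, had a CCAAT box and neither other element in the window shown above.

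Beyond the 44 members, 128 tested genes in 10 lists of the same processes also gave 0 calls in edgeR (2 at an unadjusted p under 0.05) and 0 in DESeq2. Of all genes tested by each tool, the shares were 0% in edgeR (4.06% at that unadjusted p) and 1.05% in DESeq2. Of the 128, 94 had a difference above 0, the median was 0.17, and 16 had all G328V libraries above all WT libraries while 2 had them all below. Over all tested genes 49.7% were above 0, 5.25% had all G328V libraries higher and 4.45% all lower. Without WT replicate 1, 74 of the 128 were above 0 with a median of 0.08, beside 54.1% and a median of 0.06 over all tested genes. The list medians were then 0.17 for kinesins and cytokinesis, 0.25 for the kinetochore, 0.16 for the fork and -0.02 for origins. They were 0.11 for the checkpoint and mitotic entry, 0.04 for condensin and cohesin and -0.01 for the E2F and MuvB genes. For the G1 cyclins and CDKs the median was -0.16, for the anaphase-promoting complex -0.15 and for nucleotide supply -0.02. Mitotic kinesin and cytokinesis genes had the highest list median, at 0.34 with 13 of 14 above 0. In that list Ect2, the exchange factor that starts cytokinesis, had a log2 difference of 0.56 ± 0.27 (SE), and the kinesin Kif18b had 0.58 ± 0.29 (SE). Kinetochore and passenger complex genes had a median of 0.25 with 11 of 15 above 0, and the smallest p were those of Spc24 (0.96 ± 0.41, SE) and Casc5 (0.49 ± 0.28, SE, and 0.22 without G328V replicate 2). Replication fork genes had a median of 0.23 with 16 of 18 above 0, where the polymerase subunits Pold1 and Pole2 had 0.55 ± 0.31 (SE) and 0.56 ± 0.39 (SE), which were 0.26 and 0.29 without G328V replicate 2.

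Origin recognition and licensing genes had a median of 0.18 with 11 of 13 above 0, with Orc2 at 0.51 ± 0.31 (SE) and the licensing inhibitor Gmnn at 0.62 ± 0.49 (SE), which was 0.12 without G328V replicate 3. Spindle checkpoint and mitotic entry genes had a median of 0.15 with 8 of 10 above 0. Cdc25c, a phosphatase that activates CDK1, held 47.8, 67.6 and 40.4 CPM in G328V and 25.3, 25.4 and 32.8 CPM in WT, a log2 difference of 0.90 ± 0.30 (SE; edgeR adjusted p = 0.997). Its groups did not overlap, whereas Mad1l1, a checkpoint protein, had a log2 difference of -0.94 ± 0.48 (SE) with overlap, and -0.53 without WT replicate 70A. Condensin and cohesin genes had a median of 0.12 with 11 of 13 above 0. Smc4, a condensin core subunit, had the smallest p of the 128, with 336, 452 and 453 CPM in G328V and 170, 171 and 267 CPM in WT. All 3 G328V libraries were above the WT range, and the Smc4 log2 difference was 1.03 ± 0.28 (SE; edgeR adjusted p = 0.997). Ncapd2, another condensin subunit, had 0.56 ± 0.31 (SE), which was 0.36 without WT replicate 3.

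The remaining lists were split in direction. E2F, pocket protein and MuvB genes had a median of 0.12 with 11 of 16 above 0, and E2f5 (0.62 ± 0.26, SE) and Rb1 (0.90 ± 0.44, SE) had the smallest p. The Rb1 levels ran from 24.5 to 35.4 CPM except for 82.6 in G328V replicate 2, and without that library its difference was 0.31. Nucleotide supply genes had a median of -0.03 with 4 of 8 above 0, among them Rrm2b, the p53-inducible small subunit of ribonucleotide reductase (0.67 ± 0.32, SE, and 0.43 without WT replicate 3), and Ctps, the CTP synthase (0.54 ± 0.24, SE). Genes of the anaphase-promoting complex had a median of -0.10 with 6 of 14 above 0, with Anapc5 at -0.43 ± 0.24 (SE) and the inhibitor Fbxo5 at 0.75 ± 0.31 (SE). G1 cyclins and CDKs had a median of -0.22 with 3 of 7 above 0. Cdk2, the kinase of the E-type cyclins, held 73.0, 70.8 and 71.5 CPM in G328V and 108, 107 and 82.3 CPM in WT. Every G328V library was below every WT library, at a log2 difference of -0.46 ± 0.22 (SE; edgeR adjusted p = 0.997), and the phosphatase Cdc25a had 0.43 ± 0.37 (SE), which was 0.25 without G328V replicate 1.

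Markers of other cell types and the ribosomal RNA content also differed between libraries. The 5 oligodendrocyte precursor markers summed to 13.6 to 231 CPM in G328V and 49.998 to 1044 CPM in WT. The top value was that of WT replicate 1, the lowest library for 15 G2/M and 15 G1/S genes. Olig1 and Olig2 made up nearly all of that value. In the other libraries the sum came mostly from Pdgfra, Cspg4 and Sox10, which held little in WT replicate 1. The 7 neuron markers summed to 15.1 to 58.5 CPM in G328V and 8.09 to 437 CPM in WT, and the 5 astrocyte markers to 7.30 to 54.1 CPM and 15.1 to 105 CPM. Microglia markers (4 of 6 matched) summed to at most 4.24 CPM in any library, endothelial markers to at most 39.5 CPM and fibroblast markers to at most 84.8 CPM. The ribosomal RNA precursor Rn45s took 3.16% to 4.39% of counts in G328V and 4.73% to 10.7% in WT. Their part in the results was not tested, apart from leaving out the Rn45s row, which gave medians of 0.33 for the G2/M and 0.25 for the G1/S genes.

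Some members share exonic sequence with a coding gene on the other strand, and no source used here says whether counting used strand, so reads of such pairs cannot be told apart. The overlap was 1271 bases for Kif20a with Cdc23, 609 bases for Ccne2 with Ints8, 592 bases for Ube2c with Tnnc2, 510 bases for Ccna2 with Exosc9 and 2758 bases for Gins2 with Gse1. Shorter overlaps were 385 bases for Mcm7 with Ap4m1 and Cops6, 209 for Cdc45 with Ufd1, 172 for Nusap1 with Oip5 and 53 for Cdc20 with Elovl1. Foxm1 shared 241 bases with Tex52 and Gm44596 on its own strand. Kif20a had 2.44 to 2.51 counts for each fragment of the second deposited table, and Ccne2 had 3.45 to 4.40. With that table their log2 differences were 0.31 and 0.16, beside 0.30 and 0.03 with the counts.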

How the data were processed

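Total RNA of 6 neurosphere samples was depleted of ribosomal RNA and sequenced in paired ends on a HiSeq4000, per the labels' protocols, which name a stranded TruSeq kit and a Pico kit without assigning them to libraries. Per the submitters' processing notes, FastQC 0.11.3, TopHat2 2.0.13, Bowtie2 2.2.1 and mm10 were used, with no role stated. The authors deposited a count table of 17551 gene symbols (named for HTSeq by the depositors), not normalized, with 0 rows that name no gene. They also deposited a Cufflinks table of estimated counts for 23107 genes, which was rounded and used as an alternative. No source used here gives the strand use, annotation or settings of the counting. Libraries were compared for duplicates, and every pair differed (chi-square per degree of freedom of 1238 or more).

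The test of G328V against WT was edgeR 4.0.16 in R 4.3.3 (quasi-likelihood F-test, legacy robust fit without covariates, TMM, filterByExpr at a minimum count of 10), adjusted by Benjamini-Hochberg over 14643 genes. Standard errors come from the F statistic. CPM uses TMM-scaled library sizes, and centred levels are log2 CPM with a prior count of 2 minus the mean of the 6 libraries. DESeq2 1.42.0, limma 3.58.1 (voom), other scalings, filters and left-out libraries were alternatives. Lengths and overlaps come from GENCODE vM21 (GRCm38), matched for 13233 genes (90.4%), and promoters from RefSeq.

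Members and lists were chosen with earlier results of these data known. Values in every library were given for, in each gene group, the 5 smallest p, the 3 highest mean CPM, differences opposite in sign to the group's median and groups that do not overlap. Of each other list, up to 2 genes with the smallest p were named. With 3 libraries a group, an exact permutation test cannot go below p = 0.1, so none was run for single values, and scores over members have no p.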

Additional observations from a re-analysis of the deposited data

How the results depend on the processing

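No alternative gave a called member: edgeR, DESeq2 and limma-voom, each scaling, filter, table and left-out library kept 0 calls in the G2/M genes, the G1/S genes and the 128 genes of the other lists. Over all tested genes DESeq2 gave 173 calls and every other setting gave 0, so outside DESeq2 no gene of any kind was called. The G2/M median stayed above 0 (0.17 to 0.46 on leaving out a library) with 18 to 22 genes above 0, and the G1/S median was 0.03 to 0.35 with 14 to 17 above 0, lowest without WT replicate 1. In that setting the median over all tested genes was 0.06. G1/S genes at an unadjusted p under 0.05 numbered 1, and 2 with limma-voom, 5 with total-count scaling, 2 at 1 CPM or more in 3 libraries, and 1 to 2 on leaving out a library; the cause was not tested. The numbers of genes tested were 14643, 12035 with that filter and 17551 with none. The balance difference of 0.06 was -0.01 by the median, -0.09 by summed CPM and -0.09 to 0.24 on leaving out a library. The list medians without WT replicate 1, the removal of the length trend, the counts of genes above 0 and the counts of groups that do not overlap were chosen after seeing the data.

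The groups share replicate numbers 1 and 3 only, and the labels do not say that a number marks a shared origin. The deviations of same-numbered libraries from their group means correlated at 0.18 and 0.23 over 14643 genes. Pairs with different numbers were not compared, so these values cannot show whether a number marks a shared origin. With a replicate block the medians were 0.28 for G2/M and 0.40 for G1/S genes, the balance difference was -0.12 and calls stayed at 0. Under the replicate block the log2 difference was -0.25 for Mki67, -0.061 for Cenpf, -0.020 for Kif11, -7.5e-04 for Gins2, 0.049 for E2f2 and 0.024 for Chaf1b.

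Of the 44 members, 28 never changed sign and 16 did in some alternative, 14 of them on leaving out a library. Ccnb1 was -0.0042 with DESeq2, -0.019 with limma-voom, -0.0050 with RLE factors and -0.035 with the length trend removed. Cdk1 was -0.015 with DESeq2, -0.0035 with limma-voom, -0.015 with RLE factors, -0.0046 with no filter and -0.0056 without Rn45s. Ccne2 was -0.12 with limma-voom. On leaving out a library the ranges were -0.22 to 0.59 for Mki67, -0.39 to 0.36 for Ccnb1, -0.21 to 0.15 for Cdk1, -0.21 to 0.46 for Aurka, -0.066 to 0.44 for Cenpf, -0.054 to 0.38 for Kif11 and -0.072 to 0.27 for Tpx2. They were -0.10 to 0.50 for Ube2c, -0.026 to 0.62 for Mcm7, -0.11 to 0.29 for Pcna, -0.0023 to 0.44 for Gins2, -0.17 to 0.37 for Ccne1, -0.56 to 0.42 for Ccne2 and -0.20 to 0.30 for E2f1. The median SE between libraries was 0.32 for G2/M and 0.33 for G1/S genes, and the effect of depth was not tested.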
